A study of Homo sapiens with 6 samples.

Results

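The 14 genes described here, members of the JNK and p38 stress kinase cascades, were each targeted by 1 siRNA well in a synthetic lethal screen of SUM149PT, a cell line from a triple-negative inflammatory breast cancer. The 14 wells were found among the 939 library wells by the locus identifier of the target gene. They comprise the 3 JNKs (MAPK8, MAPK9, MAPK10), the 4 p38 kinases (MAPK11, MAPK12, MAPK13, MAPK14), 2 kinases that activate JNK (MAP2K4, MAP2K7), 2 that activate p38 (MAP2K3, MAP2K6) and 3 MAPKAP kinases (MAPKAPK2, MAPKAPK3, MAPKAPK5). Each gene had a single well, so a gene and its siRNA reagent cannot be told apart, and no second reagent against any of them was in the table.

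All groups were SUM149PT cells, 750 per condition, reverse-transfected for 48 hours with siRNA at 45 nM, complexed beforehand for 30 minutes with a lipid reagent. In 3 samples nothing further was labelled as added (untreated), and 3 samples received eicosapentaenoic acid (EPA), an omega-3 polyunsaturated fatty acid, at 50 µM for 72 hours. The labels call this dose an IC50. Living cells then reduced resazurin to a fluorescent product, and the fluorescence of each well was read, so a low value can reflect fewer cells or less reduction per cell. The columns are numbered here as in the table, untreated replicates 1 to 3 and EPA replicates 4 to 6. Whether they were separate cultures is not given in the sources used here, so the spread between them may be technical.

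The cascades work in tiers. Stress-activated MAP3Ks phosphorylate the MAP2Ks, and these phosphorylate JNK or p38 on a threonine and a tyrosine of the activation loop. MAP2K7 acts on JNK, MAP2K3 and MAP2K6 act on p38, and MAP2K4 acts mainly on JNK but can also act on p38. JNK is best known for phosphorylating the transcription factor JUN. MAPK14 (p38 alpha) activates MAPKAPK2 and MAPKAPK3, which regulate the stability of inflammatory messenger RNAs. Both cascades respond to inflammatory cytokines, osmotic stress and oxidants, and in epithelial cancer cells they have been linked both to cell death and to survival.

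The 14 wells lay on plate 2 of 3, in rows 3, 5, 13 and 15 of 16, and none was an edge well (rows 1 and 16 or column 24). MAPK10 to MAPK14 shared row 3, MAPK8, MAPK9 and the MAPKAP kinases row 5, MAP2K3 and MAP2K4 row 13, and MAP2K6 and MAP2K7 row 15. The symbols in the table are the current ones for all 14 genes, and the listed target transcript is still among the RefSeq transcripts of its gene (GRCh38.p14) for 13 of 14, the exception being MAPK8. In that annotation MAPK12 and MAPK11 are neighbouring protein-coding genes, as are MAPK14 and MAPK13. The siRNA sequences were not used here.

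Plate 2 gave the following frame for the members. OTP3, the negative control siRNA, was taken as the median over its 16 wells in each sample. It gave 52575 ± 1487 fluorescence units without EPA and 22270 ± 4185 under it (SD over 3 samples), a share left of 42.4% ± 4.65 (SE). The median of the 320 library siRNAs of the plate read 24573 ± 1920 and 14913 ± 2846, with 60.7% ± 7.22 left. Blank wells stood at 3739 ± 123 and 3937 ± 34.7, and the positive control TOX at 4543 ± 208 and 4058 ± 399. The share of signal left with EPA varied between rows, a difference that was not tested. OTP3 kept 50.2% ± 5.86 in row 3, 39.2% ± 4.05 in row 5, 41.7% ± 5.56 in row 13 and 60.7% ± 2.32 in row 15, over 2 wells a row. The library median kept 76.7% ± 9.61, 60.0% ± 6.44, 48.2% ± 3.00 and 67.1% ± 8.89 in the same 4 rows.

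The main comparison, EPA-treated minus untreated, asked which knockdowns lost more or less signal with EPA than the library median of their plate. It does not test loss beyond that of the negative control OTP3, which kept 42.4% where the library median kept 60.7%. Values were log2 ratios to the library median of their plate in the same sample, so 0 within a sample stands for that median. The difference was tested against 0 by limma, with Benjamini-Hochberg adjustment over all 939 wells. Knockdown of MAPK12 (p38 gamma) and of MAPK8 (JNK1) gave a lower relative signal with EPA than without it, by 0.77 and 0.43 log2 units. Knockdown of MAP2K7, MAPK10 (JNK3), MAP2K6 and MAPK11 (p38 beta) gave a higher one, by 0.84, 0.63, 0.56 and 0.42. The other 8 members did not pass an adjusted p of 0.05. So 2 of 14 were called lower, where 15.2% of all library siRNAs were, and 4 of 14 higher, where 29.0% were. These shares are near the background and do not set the 14 apart as a set. Among the 780 interior library wells 17.1% were lower and 23.6% higher. The median of the 14 differences was 0.26, beside 0.20 over all library siRNAs. A difference of 0 thus lay below the typical library siRNA, and the test against 0 did not allow for this.

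The split of higher and lower calls depended on the reference. Centred on the OTP3 wells of the plate, 0 members were lower and 9 higher, where 6.28% and 58.1% of library siRNAs were. In that limma fit 0 members were lower at an unadjusted p under 0.05 as well. With the difference centred on the median siRNA of each plate, 3 were lower, where 20.7% of library siRNAs (194 of 939) were, and 1 was higher, where 131 of 939 were. Quantile normalization also gave 3 lower, where 17.0% were, and 1 higher, where 19.4% were.

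Some of these calls changed once plate position was taken out. After median polish, which removes the row and column effects of each plate, MAPK12 and MAPK8 were still lower and MAP2K7 and MAPK10 still higher, while MAPK11 and MAP2K6 no longer passed. The background there was 14.5% lower and 16.5% higher.

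Among the p38 kinases, MAPK12 was the well that lost most. It read 23324, 20393 and 23035 untreated and 8573, 7571 and 7323 with EPA. All 3 EPA values lay far below the untreated ones, and 35.2% ± 2.26 (SE) of the signal was left, the lowest share among the 14. The library wells around it in row 3 kept 77.4% ± 9.11 and the OTP3 wells of that row 50.2%.

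On the relative log2 scale MAPK12 stood at -0.14 untreated (SE 0.109, adjusted p = 0.258) and at -0.92 with EPA (adjusted p = 2.59e-05). The difference of -0.77 (SE 0.154, adjusted p = 0.0036) ranked 83rd from the lowest of 939, with no overlap between the groups. It was -0.83 after median polish (adjusted p = 0.00258) and -1.30 after blank subtraction (adjusted p = 0.00185), and it passed in each of the 6 fits that left out 1 replicate. Measured against OTP3 the call did not hold: the difference was -0.25 with the OTP3 wells of the plate as reference (adjusted p = 0.284) and -0.47 with those of the same row (adjusted p = 0.0699). As a share of OTP3 the MAPK12 well went from 42.3% ± 2.23 to 35.6% ± 3.95 (SD, n = 3), with no overlap (two-sided exact permutation p = 0.1, the lowest value this test can give here).

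MAPK11, the p38 encoded next to MAPK12, began at almost the same level but kept more of its signal than MAPK12. It read 26715, 23484 and 22351 untreated and 21423, 18532 and 18202 with EPA, so the groups were close but did not overlap, and 80.2% ± 6.06 was left. The other library wells of row 3 kept a similar share, 76.4% ± 10.8. The relative log2 value of MAPK11 was -0.02 untreated and 0.39 with EPA, a difference of 0.42 (SE 0.144, adjusted p = 0.0396). It passed narrowly. After median polish the difference was 0.29 (adjusted p = 0.205). Centred on the median siRNA of the plate it was 0.21 (limma adjusted p = 0.281), and with quantile normalization 0.37 (limma adjusted p = 0.0692). Leaving out untreated replicate 1, 2 or 3 gave 0.43, 0.44 and 0.38, and leaving out EPA replicate 5 or 6 gave 0.41 and 0.35, none of which passed (adjusted p from 0.0764 to 0.121).

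MAPK13 (p38 delta) gave high signal in both groups. It read 45633, 44767 and 39161 untreated and 29615, 36444 and 27673 with EPA, all 3 EPA values lying below the untreated ones, with 72.3% ± 7.03 left. Relative to the library it was at 0.81 untreated and 1.07 with EPA, both past the threshold (adjusted p = 0.000171 and 1.73e-05). MAPK14, p38 alpha, the widely expressed member, read a mean of 33004 ± 1530 and 25302 ± 2234 (SD), with 76.7% ± 4.41 left, at 0.43 and 0.78 relative to the library. Neither difference between the groups passed: it was 0.26 for MAPK13 (95% interval -0.12 to 0.64, adjusted p = 0.232) and 0.35 for MAPK14 (0.04 to 0.66, adjusted p = 0.0672). Without EPA replicate 4 both did, at 0.44 and 0.43, and after median polish they stood at 0.04 and 0.01. MAPK14 also passed after blank subtraction (0.49, adjusted p = 0.0481). Centred on the OTP3 wells of the plate both passed, at 0.78 and 0.87, where 58.1% of library siRNAs were higher. With the OTP3 wells of the same row both passed at 0.56 and 0.65, where 255 of 459 were higher.

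Setting the 4 p38 wells against each other removes what the plate shares. The log2 ratio of MAPK11 to MAPK12 was 0.12 ± 0.140 untreated and 1.31 ± 0.0155 with EPA (SD, n = 3). MAPK12 also fell against MAPK14, from -0.57 ± 0.0798 to -1.69 ± 0.0590, and against MAPK13, from -0.96 ± 0.185 to -1.99 ± 0.248. In these 3 pairs the groups did not overlap, whereas in the 3 pairs without MAPK12 they did (exact permutation p from 0.4 to 0.8). All 4 wells were in the same plate row. Over the 14 pairs of members compared within a role, 8 did not overlap. Each of these had an exact permutation p of 0.1, the lowest this test can give for 3 samples against 3, and an adjusted p of 0.175. Pairs share wells, and how many pairs of other library wells would not overlap was not counted. So the count of 8 has no background to stand against.

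Relative to the library median the 3 JNK wells differed in direction, MAPK9 without passing. Centred on the OTP3 wells of the plate, the differences of MAPK8, MAPK9 and MAPK10 were all positive, at 0.09, 0.39 and 1.15. Only that of MAPK10 passed there. MAPK8 (JNK1), one of the 2 broadly expressed JNKs, read 41136, 40046 and 34745 untreated and 18157, 19707 and 14127 with EPA. The EPA values were all less than the lowest untreated one, and 44.8% ± 4.88 (SE) was left, against 61.7% ± 7.24 in the other library wells of row 5 and 39.2% in its OTP3 wells. Relative to the library, MAPK8 was called higher untreated, at 0.65 (SE 0.112, adjusted p = 0.000488), and stood at 0.22 with EPA (adjusted p = 0.101, and 0.33 without EPA replicate 4, where it passed).

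The MAPK8 difference of -0.43 (SE 0.159) passed by a narrow margin, at an adjusted p of 0.0493, with no overlap between the groups. It was larger after median polish, at -0.53 (adjusted p = 0.0162), and did not pass after blank subtraction alone (-0.45, adjusted p = 0.0936). It did not pass without untreated replicate 1, 2 or 3 (-0.45, -0.36 and -0.49) nor without EPA replicate 4 or 6 (-0.33 and -0.40), with adjusted p from 0.0665 to 0.161, and it did pass without EPA replicate 5 (-0.57). Against OTP3 its sign turned, to 0.09 (adjusted p = 0.721), and as a share of OTP3 the well read 73.6% ± 8.10 untreated and 79.5% ± 20.4 with EPA (exact permutation p = 0.8).

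MAPK10 (JNK3), the JNK known mainly from the nervous system, heart and testis, went the other way relative to the library. It read 36719, 40759 and 37216 untreated and 39159, 31093 and 37027 with EPA. The 2 groups overlapped, and 93.5% ± 7.04 of the signal was left (exact permutation p = 0.5). Its relative log2 value rose from 0.64 to 1.27, the highest of the 14 with EPA, a difference of 0.63 (SE 0.153, adjusted p = 0.00887). That difference was 0.64 after median polish (adjusted p = 0.0233) and passed in each of the 6 fits without 1 replicate. With quantile normalization of the samples it was 0.33 (adjusted p = 0.0882) and with the difference centred on the median siRNA of the plate 0.43 (adjusted p = 0.0549), neither of them past the threshold.

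MAPK9 (JNK2), the other broadly expressed JNK, read 30550 ± 2229 untreated and 16852 ± 1993 with EPA (SD), with 55.2% ± 4.43 left. Its difference was -0.13 (95% interval -0.53 to 0.27, adjusted p = 0.577), and the relative values of the groups overlapped. Its relative value untreated, 0.31, was only just past the threshold (adjusted p = 0.0484) and did not pass without untreated replicate 1, 2 or 3 (0.37, 0.32 and 0.25) or without EPA replicate 5, which changes only the variance. The log2 ratio of MAPK8 to MAPK10 went from 0.01 ± 0.136 to -1.05 ± 0.369 and that of MAPK9 to MAPK10 from -0.32 ± 0.181 to -1.09 ± 0.0811, without overlap. MAPK8 against MAPK9 overlapped (exact permutation p = 0.3). Row 3 held MAPK10 and row 5 the other JNKs, so these ratios carry the row difference given above.

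Of the kinases that activate JNK, MAP2K7 had the largest difference among the 14 on this scale, though not after median polish, where MAPK12 (-0.83) and MAPK10 (0.64) exceeded it (0.62), nor after blank subtraction or centring per plate, where MAPK12 (-1.30 and -0.98) did. Its well read 29741, 24284 and 22466 untreated and 32229, 25102 and 24813 with EPA. The ranges overlapped, and 107% ± 13.2 of the signal was left (exact permutation p = 0.5), where the OTP3 wells of row 15 kept 60.7% and the other library wells of that row 64.8% ± 9.10. Its relative log2 value was 0.05 untreated (adjusted p = 0.684) and 0.88 with EPA (adjusted p = 1.14e-05).

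The MAP2K7 difference of 0.84 (SE 0.132, adjusted p = 0.00134) ranked 34th from the highest of 939. It passed in all 9 alternative fits, from 0.62 after median polish to 1.36 when centred on OTP3 (adjusted p from 3.43e-05 to 0.0162), and in each of the 6 fits without 1 replicate. After median polish the untreated value was -0.28 (adjusted p = 0.0254) and the EPA value 0.34.

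MAP2K4, which shares JNK as a substrate with MAP2K7, read 40072 ± 3438 untreated and 24424 ± 1742 with EPA (SD), with 61.0% ± 3.93 left. It was called higher than the library in both groups, at 0.70 and 0.73, and its difference was 0.02 (95% interval -0.30 to 0.34, adjusted p = 0.917). The log2 ratio of MAP2K4 to MAP2K7 went from 0.66 ± 0.213 to -0.16 ± 0.130, with no overlap. These wells lay in rows 13 and 15, so this ratio carries the row difference. The library median kept 48.2% in row 13 and 67.1% in row 15.

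The 2 activators of p38 stood at different levels. MAP2K3 gave one of the lowest signals of the 14. It read 15935, 14194 and 10755 untreated and 9883, 12127 and 7831 with EPA, with overlap and 73.0% ± 12.2 left (exact permutation p = 0.2). Relative to the library it was at -0.87 untreated (adjusted p = 0.000472) and -0.59 with EPA (adjusted p = 0.0044). After median polish neither passed, at -0.24 and 0.05. Its difference was 0.28 (95% interval -0.19 to 0.75, adjusted p = 0.305).

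MAP2K6 read 37687, 32084 and 31086 untreated and 32252, 30177 and 27135 with EPA. The groups overlapped and 88.8% ± 7.0 was left (exact permutation p = 0.3). Its relative value rose from 0.45 to 1.01, a difference of 0.56 (SE 0.128, adjusted p = 0.0064), which passed without each replicate in turn. It did not pass after median polish (0.42, adjusted p = 0.0538), with quantile normalization (0.35, adjusted p = 0.0607) or centred on the median siRNA of the plate (0.36, adjusted p = 0.0529). MAP2K3 stood below MAP2K6 in both groups, with a log2 ratio of -1.32 ± 0.189 untreated and -1.60 ± 0.255 with EPA, and this ratio overlapped between the groups (exact permutation p = 0.2). These wells lay in rows 13 and 15, so the ratio carries the row difference. The library medians of these rows were 22202 and 30438 untreated and 10705 and 20423 with EPA. After median polish MAP2K6 stood at 0.16 untreated (limma adjusted p = 0.255) and 0.57 with EPA, beside -0.24 and 0.05 for MAP2K3.

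None of the 3 MAPKAP kinases passed in EPA-treated minus untreated by limma, and 1 of them, MAPKAPK2, was lower at an unadjusted p under 0.05. MAPKAPK2 (MK2), the principal effector of p38 alpha, had the highest untreated signal of the 14. It read 50572, 42398 and 45358 untreated and 26351, 21820 and 21164 with EPA, all EPA values lying below the untreated ones, with 50.1% ± 4.39 left. Relative to the library it was at 0.91 untreated, ranked 64th from the highest, and at 0.64 with EPA, both called higher. The difference was -0.27 (95% interval -0.52 to -0.0056, adjusted p = 0.0885). It passed when centred on the median siRNA of the plate (-0.47) and with quantile normalization (-0.54), but not after median polish (-0.39, adjusted p = 0.118).

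MAPKAPK5 (PRAK), a kinase that also binds the atypical MAPKs, had the lowest untreated mean. It read 14526, 12795 and 12714 untreated and 9263, 10723 and 9041 with EPA, without overlap, and 72.5% ± 5.09 was left. It was called lower than the library in both groups, at -0.88 and -0.61, and was at -1.0 and -0.60 after median polish. Its difference was 0.27 (95% interval -0.14 to 0.68, adjusted p = 0.251), and 0.45 without EPA replicate 4, where it passed. Centred on the OTP3 wells of the plate it was 0.79 and passed, where 58.1% of library siRNAs were higher. MAPKAPK3 (MK3) read 20198 ± 1924 and 12162 ± 1541 (SD), with 60.2% ± 5.51 left and a difference of -0.00085 (95% interval -0.48 to 0.48, adjusted p = 0.997). Relative to the library it was at -0.28 untreated (adjusted p = 0.121) and -0.29 with EPA (adjusted p = 0.116). The untreated value passed without EPA replicate 4, which changes only the variance there, and both passed after median polish, at -0.45 and -0.53.

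In level, the untreated means ran from MAPKAPK2 (46109) through MAPK13, MAP2K4, MAPK8, MAPK10, MAP2K6, MAPK14, MAPK9, MAP2K7, MAPK11, MAPK12 and MAPKAPK3 to MAP2K3 (13628) and MAPKAPK5 (13345). Of the 13 pairs of neighbours in that order, only MAPKAPK3 and MAP2K3 had samples that did not overlap. With EPA the order was MAPK10 (35760), MAPK13, MAP2K6, MAP2K7, MAPK14, MAP2K4, MAPKAPK2, MAPK11, MAPK8, MAPK9, MAPKAPK3, MAP2K3, MAPKAPK5 and MAPK12 (7822). Here 2 of the 13 neighbour pairs did not overlap, MAPK9 with MAPKAPK3 and MAPKAPK5 with MAPK12. MAPKAPK2 stood in place 1 untreated and in place 7 with EPA, and MAPK12 in place 11 and in place 14.

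Without EPA, relative to the library median, 8 of 14 members were called higher, where 33.9% of library siRNAs were, and 2 lower, where 35.6% were. The higher ones were MAPK8, MAPK9, MAPK10, MAPK13, MAPK14, MAP2K4, MAP2K6 and MAPKAPK2, and the lower ones MAP2K3 and MAPKAPK5. With EPA 8 were higher, where 36.4% were, and 3 lower, where 37.0% were. MAPK11 and MAP2K7 had joined the higher ones, MAPK8 and MAPK9 were no longer among them, and MAPK12 had joined the lower ones. The median of the 14 was 0.37 untreated and 0.52 with EPA. Among the 780 interior library wells, which include all 14 members, 208 were higher and 318 lower untreated, and 216 and 336 with EPA. Centred on OTP3, 13 members were lower and 0 higher untreated, where 91.8% and 0.532% of library siRNAs were, and 0 were higher at an unadjusted p under 0.05 in that limma fit. With EPA 6 were then lower and 4 higher, where 64.7% and 13.5% were.

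These levels are relative to other siRNAs and not to cells with the negative control. As a share of OTP3, all 14 members were below 100% untreated, from 25.4% ± 2.07 (MAPKAPK5) to 87.7% ± 7.36 (MAPKAPK2), with the library median of the plate at 46.7% ± 3.56. With EPA 7 of them were above 100%, led by MAPK10 at 162% ± 17.0, MAPK13 at 145% ± 41.7, MAP2K6 at 136% ± 19.8 and MAP2K7 at 124% ± 6.80, and the library median was at 67.1% ± 6.18 (SD, n = 3). The share was higher with EPA for 13 of the 14, MAPK12 being the exception. The library median rose too, and how many library wells rose or lay above 100% was not counted. For MAPK8 and MAPKAPK3 the rise did not separate the groups (exact permutation p = 0.8 and 0.3). Against the OTP3 wells of their own row, 13 of the 14 wells kept more of their signal, MAPK12 again being the exception. The library median of each of these rows also kept more than its OTP3 wells, and the count over all library wells was not made. Against the other library wells of their row, 9 kept more, some narrowly, such as MAPK14 at 76.7% against 76.4% ± 10.4 (SE).

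Tiers of the pathway beyond the 14 were read from lists, whose counts stand against 15.2% lower and 29.0% higher over all library siRNAs, or 14.5% and 16.5% after median polish. Of 17 stress MAP3Ks, 16 were measured in 17 wells, and in EPA-treated minus untreated 2 wells fell and 5 rose, with a median of 0.38. Median polish gave 2 and 2. Both lower wells carried the same siRNA catalogue number, listed as TAO1, whose locus identifier is that of TAOK2, a kinase upstream of p38. They stood at -0.99 (SE 0.163, adjusted p = 0.00162) on plate 2 and -0.45 (SE 0.119, adjusted p = 0.0128) in an edge well of plate 3, and at -0.88 and -1.05 after median polish. MAP3K5 (ASK1, 0.75) and MAP3K2 (0.71) were the highest of that list, and neither passed after median polish (0.15 and 0.28). MAP3K5 was in an edge well.

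Of the 7 wells measured for 8 scaffolds and phosphatases of the cascades, 2 wells fell and 0 rose, where 15.2% and 29.0% of library siRNAs did, with a median of -0.06, and median polish gave 2 and 2. By limma's unadjusted p under 0.05, 2 were lower and 2 higher. Both wells that fell were dual-specificity phosphatases, which remove the activating phosphates from MAPKs. Such phosphatases make up most of that list, so these 2 calls do not set them apart from the scaffolds. DUSP4, which acts on ERK and JNK, was at -1.61 (SE 0.146, adjusted p = 0.000169) and its well went from 47236 ± 237 to 9685 ± 1022 (SD, n = 3). DUSP10, which acts on JNK and p38, was at -0.91 (SE 0.188, adjusted p = 0.00432), its well going from 28107 ± 5115 to 9225 ± 420. After median polish they were at -1.39 and -1.02, both past the threshold.

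The 10 kinases of the ERK and other MAPK cascades, taken for comparison, had 1 lower and 4 higher with a median of 0.39, and 1 and 1 after median polish. MAP2K1 (MEK1) was at -0.70 (SE 0.186, adjusted p = 0.0128), and only just passed after median polish (-0.41, limma adjusted p = 0.0497). Its well went from 16888 ± 3324.5 untreated to 6146 ± 15.6 with EPA (SD, n = 3). That is not far above the blank (3937) and TOX (4058) wells of the plate with EPA. MAPK3 (ERK1) was at 0.74 (SE 0.203, adjusted p = 0.0151) and did not pass after median polish (0.44). Of 4 other effector kinases downstream of p38 or ERK, 0 were lower (1 at limma's unadjusted p under 0.05) and 1 was higher, RPS6KA5 (MSK1) at 0.56 (SE 0.151, adjusted p = 0.0143), which stood at 0.55 after median polish (adjusted p = 0.0538). The difference between these lists and the 14 members was not tested.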

How the data were processed

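The authors deposited 1 table headed as raw data, with a fluorescence intensity for each well in each sample. Whether they corrected for blanks, plate position or scale beforehand was not given in the sources used here. The blank wells do carry signal. Column headings give the group but not the numbered sample of the labels. Members and gene lists were chosen with earlier results of these data known, and were matched by locus identifier through a RefSeq table (GRCh38.p14). Log2 ratios to the library median of each plate and sample were fitted with limma 3.58.1 in R 4.3.3, with a mean per group over all 6 samples, trended and robust moderation, without a pseudocount or a low-value filter, so all 14 members entered. Single values were compared by exact two-sided permutation tests (scipy 1.17.1). The share of signal left is the ratio of group means. Values were given in every sample for members past the threshold in EPA-treated minus untreated, for those whose call there changed after median polish, and for the 2 lowest and 2 highest in each other contrast. In each other list, the 2 lowest and 2 highest past the threshold were named, except 1 gene that is not reported here. The fit was tested on simulated data with independent noise per well and no plate effects. It recovered 42.5% of simulated differences of -0.5 log2 units and 55% of those of 0.5. At -1 and 1 it recovered 87.5% and 92.5%, and 5.06% of all calls were false. The 3 samples per group and the distance of a well from the blank level limit the precision.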

Additional observations from a re-analysis of the deposited data

Results flagged for a closer look

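For 6 of the 14 members the effect of the siRNA relative to the library differed between EPA-treated and untreated samples in limma's test of that difference, where 15.2% of all 939 library siRNAs were called lower and 29.0% higher, so that 6 of 14 is near the background. These are the calls described above, on the log2 scale: MAPK12 at -0.77 and MAPK8 at -0.43, with a lower relative signal under EPA, and MAP2K7 at 0.84, MAPK10 at 0.63, MAP2K6 at 0.56 and MAPK11 at 0.42, with a higher one. MAPK12, MAPK8, MAP2K7 and MAPK10 passed after median polish too, and MAPK12 and MAPK8 did not pass against OTP3. Why the wells of these 6 genes differed in direction was not tested.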

How the results depend on the processing

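The choice of reference moved the counts most. Centred on the OTP3 wells of the plate, 13 members were lower and 0 higher untreated, 6 lower and 4 higher with EPA, and 0 lower and 9 higher in EPA-treated minus untreated, where 59 and 546 of all 939 siRNAs were. Among members past the threshold under at least one of the settings compared, signs then turned untreated for MAPK8 (-0.45), MAPK9 (-0.79), MAPK10 (-0.46), MAPK13 (-0.29), MAPK14 (-0.67), MAP2K4 (-0.39), MAP2K7 (-1.05), MAP2K6 (-0.65) and MAPKAPK2 (-0.19), with EPA for MAPK8 (-0.36), MAPK9 (-0.39) and MAPK11 (-0.19), and in the difference for MAPK8 (0.088). Signs of differences that passed under neither also turned, for MAPK9 (0.39), MAPKAPK2 (0.26) and MAPKAPK3 (0.52).

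Centring on the OTP3 wells of the same row, chosen after seeing the data and run on the 459 library wells of odd rows, gave 13 lower and 0 higher untreated, 5 and 3 with EPA, and 0 and 12 in the difference, where 27 and 255 of the 459 were. At an unadjusted p under 0.05 by limma, 0 members were higher untreated and 1 was lower in the difference. By the same rule signs turned untreated for MAPK8 (-0.41), MAPK9 (-0.75), MAPK10 (-0.50), MAPK13 (-0.32), MAPK14 (-0.71), MAP2K4 (-0.34), MAP2K7 (-1.05), MAP2K6 (-0.65) and MAPKAPK2 (-0.16). They turned with EPA for MAPK11 (-0.44), MAPK14 (-0.058), MAP2K7 (-0.16) and MAP2K6 (-0.033), and in the difference for MAPK8 (0.24), MAPK9 (0.54), MAPKAPK2 (0.41) and MAPKAPK3 (0.67), and among values past the threshold under neither with EPA for MAPK8 (-0.17) and MAPK9 (-0.21).

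In the difference, 1 member was lower after blank subtraction and 1 without trended and robust moderation, where 155 and 141 of 939 siRNAs were. Higher members were 2 after median polish, 2 with blank subtraction and median polish, 1 with quantile normalization and 1 with the difference centred per plate, where 155, 128, 182 and 131 of 939 siRNAs were, against 272 as reported. Over all 939 siRNAs the median difference of 0.20 became 0.63 with OTP3 centring, 0.07 after median polish and 0.08 with quantile normalization. Median polish turned MAP2K7 untreated (-0.28) and MAP2K3 with EPA (0.047, and 0.054 with blank subtraction), and, past the threshold under neither, MAPK11 (0.18) and MAPK12 (0.040) untreated, MAPK8 with EPA (-0.025) and MAP2K4 in the difference (-0.14). Other such turns were of values that passed under neither setting. Leaving out each replicate in turn gave 1 to 2 lower and 3 to 7 higher members in the difference, with 7 without EPA replicate 4. All other counts of members stayed within 1.5 times of those reported.

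No paired analysis was possible because the columns are numbered 1 to 6 through both groups and carry no replicate number that the groups share.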
